A study of Homo sapiens with 4 samples.

Results

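The interleukin-11 (IL11) and gp130 cytokine family was followed through RNA that co-purified with the kinesin heavy chain KIF5A. The family was taken as 9 genes matched by symbol, 5 ligands (IL11, LIF, IL6, CLCF1 and CTF1) and 4 receptor chains (IL6ST, LIFR, OSMR and IL11RA), out of 60719 genes listed. The family was selected on measured values, the read counts of these 4 libraries and their difference between d27 and WT, so that difference is given for the 9 genes as a description, with no test, and supports nothing about them. The d27 libraries came from SK-N-AS, an established neuroblastoma cell line of human origin, transfected a day earlier with a V5-tagged construct of the KIF5A mutant that the labels call d27. The WT libraries came from the same line transfected in the same way with V5-tagged wild-type KIF5A. Both constructs were introduced by lipid transfection into cells that keep their own KIF5A gene, and each has 2 anti-V5 bead precipitates, numbered 1 and 2. The series title groups its KIF5A mutations with amyotrophic lateral sclerosis. The labels do not say whether precipitates came from separate cultures, so any p-value reflects the spread among these 4 libraries alone, and that spread may be technical.

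Cytokines of this family signal through a shared receptor chain, gp130, which is encoded by IL6ST. IL11 and IL6 first bind a private receptor chain that does not itself signal (IL11RA for IL11) and then bring gp130 chains together. LIF, CTF1 and CLCF1 instead pair gp130 with LIFR, and oncostatin M can pair it with OSMR. The paired chains activate JAK kinases and STAT3, which in turn switches on SOCS3, a feedback inhibitor. In the nervous system LIF, CTF1 and CLCF1 are known as survival and differentiation factors for neurons.

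Sequence features of the transcripts and promoters are shown first because the members differ in them. Messages of many cytokines hold AU-rich elements, repeats of the pentamer ATTTA (in DNA letters) in the 3′ untranslated region (UTR), which are known to mark a message for rapid decay. In the main GENCODE release 29 transcript of each gene the IL11 3′ UTR, 1618 bases long, held 9 ATTTA pentamers, the first ones close to the stop codon. OSMR held 8, LIF 7, IL6 6, CLCF1 4, CTF1 1 and IL11RA 0, while the long 3′ UTRs of IL6ST and LIFR held 23 and 29. Per kilobase of 3′ UTR, IL6 had 13.99, IL11 5.56, LIFR 4.37, CLCF1 4.13, IL6ST 3.84, OSMR 3.64, LIF 2.18 and CTF1 0.979, beside a median of 1.38 over the 19173 protein-coding genes with a 3′ UTR. The tandem form ATTTATTTA, in which neighbouring pentamers share a base, occurred 3 times in IL11, 2 of these overlapping each other, and in OSMR, with 2 overlapping matches, and CLCF1, with 1. No other member had it, and 6.28% of those 19173 genes did. The 30 bases with the most pentamers are shown for these members and for LIF, which lacked the tandem form, with ATTTA in capitals, 5′ to 3′ on the minus strand of GRCh38 for IL11 (chr19:55365943-55365972), CLCF1 (chr11:67364231-67364260) and LIF (chr22:30240522-30240551) and on the plus strand for OSMR (chr5:38935442-38935471).
IL11 3′ UTR: ccagatcttATTTATTTATTTAtttcagta
OSMR 3′ UTR: attgtcagcATTTATTTATTTAtgtacctt
CLCF1 3′ UTR: taatATTTATTTAtttggagatgttATTTA
LIF 3′ UTR: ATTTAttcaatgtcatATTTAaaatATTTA

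**Figure D1:**
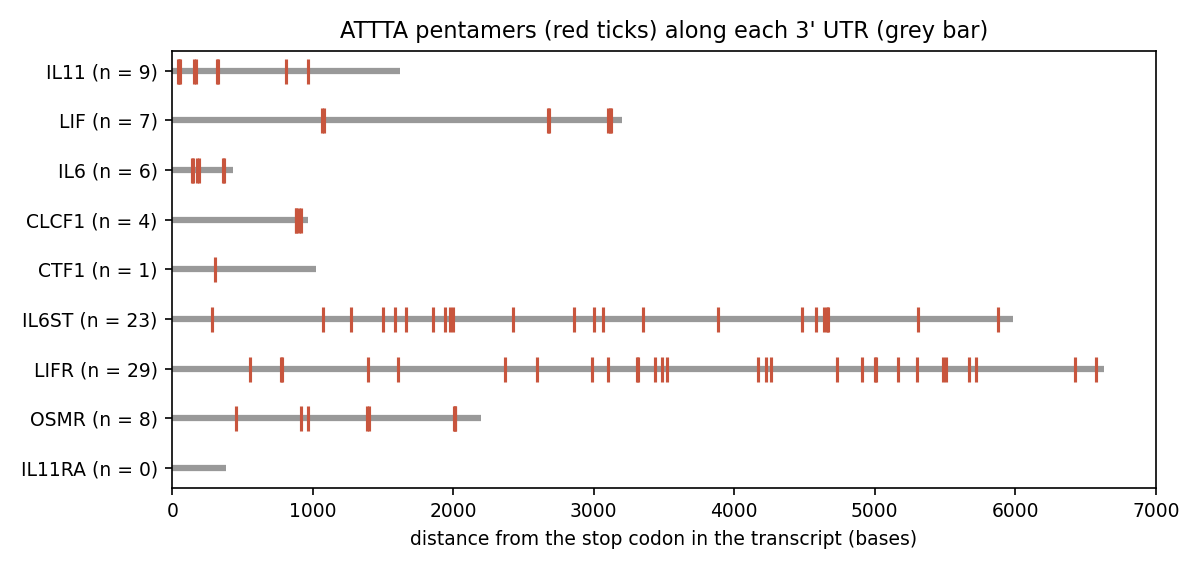
Position of each ATTTA pentamer (red ticks) along the 3′ UTR (grey bar) of the 9 family members, with distance from the stop codon in bases on the horizontal axis and the number of pentamers beside each name. The 9 pentamers of IL11 begin near the stop codon, those of CLCF1 lie at the far end, and IL6ST and LIFR have the longest UTRs with 23 and 29.

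RefSeq promoter windows (GRCh38.p14, from 250 bases before to 50 after a gene's start) were at hand for 6 of the 9 members, in 9 windows, and not for LIF, CLCF1 or CTF1. Motifs were searched on both strands. The AP-1 site TGANTCA was in 2 of the 9 member windows, those of IL11 and OSMR, and in 7.71% of all 35116 windows. The IL11 match began 96 bases before the start (chr19:55370553-55370559, minus strand), and the OSMR match began at base 4 of the transcript (chr5:38846015-38846021, plus strand). The STAT site TTCNNNGAA was found in 2 of the 3 LIFR windows (7.66% of all windows). An EGR site, GCGNGGGCG, was in the remaining LIFR window and in 1 IL11RA window (9.43% of all windows), and neither the cyclic AMP site TGACGTCA nor the searched form of the serum response (CArG) box was in any member window. The 250 bases before the IL11 start (chr19:55370464-55370713, minus strand) and the 30 bases around the OSMR match (chr5:38846004-38846033, plus strand) follow, with the AP-1 letters in capitals.
IL11 promoter: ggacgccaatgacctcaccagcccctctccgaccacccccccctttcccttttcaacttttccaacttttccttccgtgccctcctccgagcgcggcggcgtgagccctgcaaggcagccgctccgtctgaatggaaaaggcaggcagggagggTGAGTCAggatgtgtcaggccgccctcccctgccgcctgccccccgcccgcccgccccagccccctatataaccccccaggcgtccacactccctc
OSMR start: tgccccgcagcTGATTCAtagccccggccc

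Counts over genes totalled 18335151 and 10483082 in d27 replicates 1 and 2 and 8142869 and 10811134 in WT replicates 1 and 2. Reads not assigned to a gene made up 25.9% and 36.8% of all entries in d27 and 47.6% and 47.3% in WT, so this share moved with the groups, and its part in the results was not tested. Markers fitted a neuroblastoma line in part: HAND2 had 557 and 424 CPM (counts scaled to library totals) in d27 and 697 and 681 in WT, whereas DBH and TH, enzymes of noradrenaline synthesis, had at most 13 counts in any library. The summed level of 9 mesenchymal markers was 4828 and 4440 CPM in d27 and 3357 and 3619 CPM in WT. FOSL1 set the direction of that sum, though 5 of the 9 markers, FOSL1 included, had a log2 fold change above 0. FOSL1 was left out after its values were seen. The other 8 then summed to 2917 and 2696 CPM in d27 and 3191 and 3477 CPM in WT. The sum of 9 adrenergic markers was 1304 and 967 CPM in d27 and 1188 and 1085 CPM in WT. Of the blood cell markers, CD3E and HBB were at 0 in all 4 libraries, while PTPRC had 100 and 79.5 CPM in d27 and 189 and 162 CPM in WT and was called lower in d27 (log2 fold change -0.96 ± 0.24 SE, edgeR adjusted p = 0.0433). The 6 epithelial markers summed to 3.04 and 5.38 CPM in d27 and 6.58 and 5.08 in WT, with EPCAM at 0 throughout. The 5 endothelial markers summed to 1.84 and 1.76 CPM in d27 and 4.76 and 3.83 in WT, with CDH5 at 0 throughout. The part of these marker levels in the results was not tested. KIF5A itself had a log2 fold change, d27 over WT, of -0.20 ± 0.49 (SE, edgeR adjusted p = 0.821), and its count does not tell the constructs apart. No input library is used here, so a transcript that was more abundant in the cells and one that co-purified more readily cannot be told apart, nor can fewer cells with a transcript and less of it per cell.

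IL11 was the member that set the d27 libraries apart. IL11 (ENSG00000095752.7, chromosome 19, 55364389 to 55370463, minus strand), a cytokine best known for its part in fibrosis and in blood platelet formation, had 3828 and 2031 counts in d27 replicates 1 and 2 and 120 and 91 counts in WT. With CPM further scaled by TMM, edgeR's correction for library composition, as in all CPM here, these were 208 and 188 in d27, against 13.6 and 9.43 in WT. Both d27 libraries lay far above both WT libraries, and 31.4% of all genes tested had both d27 libraries higher. The family was selected on this difference, so its size, its rank and its range below are description alone. The means were 198 ± 14 CPM in d27 and 11.5 ± 3.0 CPM in WT (SD, n = 2 each), and the fitted log2 fold change, d27 over WT, was 4.10 ± 0.29 (standard error, SE), or 17.2-fold. This placed IL11 at rank 40 of the 14909 genes tested when ordered by fitted log2 fold change. Leaving out each library in turn gave values between 3.88 and 4.43.

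LIF, by contrast, was as variable within a group as between groups. LIF (ENSG00000128342.5, chromosome 22, 30240447 to 30246851, minus strand), which keeps mouse embryonic stem cells undifferentiated and acts on neurons and muscle, had 1979 and 2225 counts in d27 and 852 and 2128 in WT. Its level was 107 and 206 CPM in d27, against 96.7 and 220 CPM in WT. Replicate 2 was about as far above replicate 1 in each group, and the groups overlapped completely. The fitted log2 fold change was -0.02 ± 0.44 (SE), and it ranged from -0.53 without d27 replicate 2 to 0.71 without WT replicate 2, so its sign was set by which library was left out. LIF overlaps the antisense genes LIF-AS1 and LIF-AS2 on the opposite strand, which had between 0 and 20 counts per library.

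The neurotrophic ligands CLCF1 and CTF1 were scarce. CLCF1 (ENSG00000175505.11, chromosome 11, 67364168 to 67374177, minus strand), which acts through the ciliary neurotrophic factor receptor, had 132 and 104 counts in d27 and 23 and 5 counts in WT. That was 7.16 and 9.64 CPM in d27, against 2.61 and 0.518 CPM in WT. The groups did not overlap, but the WT libraries differed from each other by more than the d27 libraries did on a relative scale. The fitted log2 fold change was 2.43 ± 0.73 (SE), and it was 4.03 without WT replicate 1, whose 23 counts are most of the WT total, and 1.70 without WT replicate 2. CTF1 (ENSG00000150281.7, chromosome 16, 30896607 to 30903560, plus strand), known as a growth factor of heart muscle cells, had 37 and 22 counts in d27 and 24 and 0 counts in WT. Its 2.01 and 2.04 CPM in d27 lay between the 2.72 and 0 CPM of the WT libraries, and a count of 0 in WT replicate 2 allows up to 0.311 CPM (3 counts). The fitted log2 fold change of 0.58 ± 1.35 (SE) therefore rests on 1 WT library.

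IL6 was close to absent. IL6 (ENSG00000136244.12, chromosome 7, 22725884 to 22732002, plus strand), the ligand of the acute inflammatory response, had 0 and 1 counts in d27 and 0 counts in both WT libraries. Counts of 0 allow up to 0.163 CPM in d27 replicate 1, and up to 0.340 and 0.311 CPM in WT replicates 1 and 2, for counting error only. IL6 did not reach the test's filter on low counts, and no fold change is given.

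**Figure D2:**
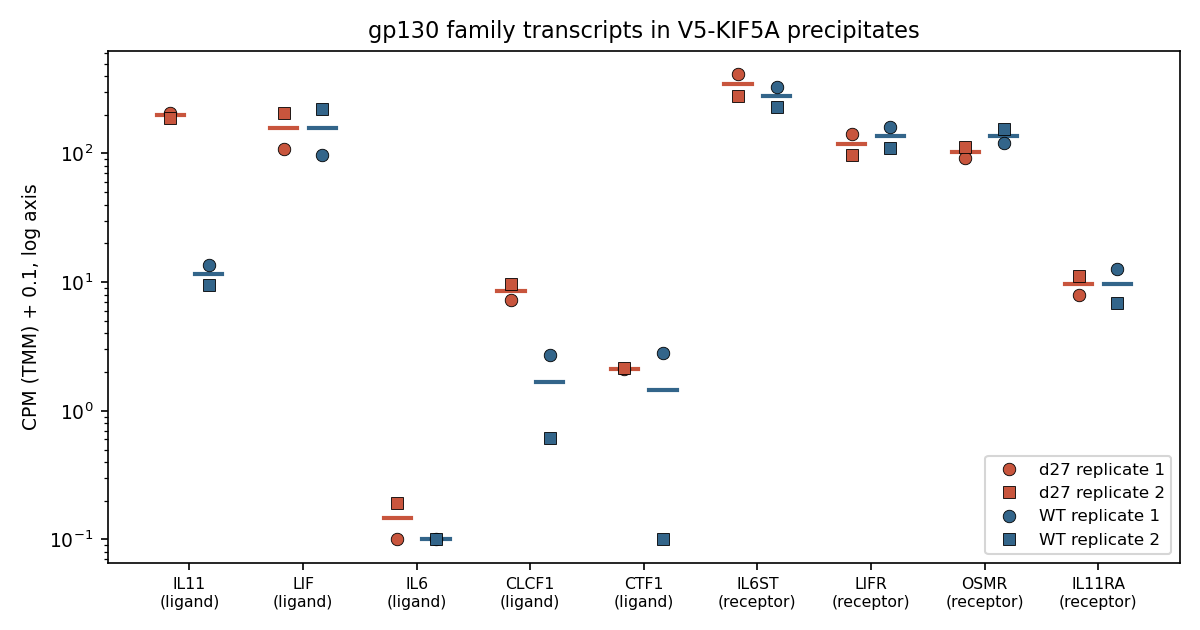
Level of each family member in every library, as CPM scaled by TMM plus 0.1 on a log axis, with d27 (red) left of WT (blue), circles for replicate 1, squares for replicate 2 and bars for the mean of 2 libraries. IL11 lies at 208 and 188 CPM in d27 and 13.6 and 9.43 CPM in WT, while the groups overlap for IL6ST, LIFR and IL11RA and are narrowly apart for OSMR.

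Among the receptor chains, the groups overlapped for IL6ST, LIFR and IL11RA. IL6ST (ENSG00000134352.20, chromosome 5, 55935095 to 55994993, minus strand), the gp130 chain itself, had 7640 and 3001 counts in d27 and 2872 and 2234 in WT, which were 414 and 278 CPM in d27 and 326 and 231 CPM in WT. The ranges overlapped, and the fitted log2 fold change was 0.31 ± 0.30 (SE). LIFR (ENSG00000113594.10, chromosome 5, 38474963 to 38608354, minus strand), the partner chain for LIF, CTF1 and CLCF1, had 2617 and 1045 counts in d27 and 1425 and 1055 in WT. Its 142 and 96.9 CPM in d27 overlapped the 162 and 109 CPM in WT, with a fitted log2 fold change of -0.18 ± 0.30 (SE) that changed sign to 0.17 without WT replicate 1 and to 0.10 without d27 replicate 2. For both of these chains replicate 1 was above replicate 2 in each group.

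OSMR (ENSG00000145623.13, chromosome 5, 38845858 to 38945596, plus strand), the oncostatin M partner chain, was the receptor whose groups did not overlap. It had 1710 and 1211 counts in d27 and 1062 and 1496 in WT, which were 92.8 and 112 CPM in d27 and 120 and 155 CPM in WT. The nearest d27 and WT libraries were closer to each other than the 2 libraries within either group were. The fitted log2 fold change was -0.43 ± 0.25 (SE). OSMR overlaps exons of RICTOR on the opposite strand, which had 451 and 194 counts in d27 and 263 and 160 in WT, and the strand setting of the counting is not given in the sources used here.

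For the private receptor chain of IL11 the groups overlapped. IL11RA (ENSG00000137070.18, chromosome 9, 34650702 to 34661892, plus strand) had 145 and 120 counts in d27 and 110 and 65 in WT. Its level was 7.87 and 11.1 CPM in d27 and 12.5 and 6.73 CPM in WT, with both d27 libraries between the WT libraries and a fitted log2 fold change of -0.02 ± 0.43 (SE). Without WT replicate 1 it was 0.53, and without WT replicate 2 it was -0.38. Its exons overlap those of GALT and of an unnamed protein-coding gene (ENSG00000258728) on the same strand, and reads that overlap more than 1 gene are left out by HTSeq in its usual setting, so the IL11RA count is uncertain. The same holds for CLCF1, which shares exon sequence with an unnamed protein-coding gene (ENSG00000256514) that had 0 counts in every library.

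Of the 9 members, 8 passed the filter on low counts and 1, IL6, did not. The groups did not overlap in 3 of these 8 (IL11 and CLCF1 higher, OSMR lower), against 61.2% of all genes tested (31.4% higher and 29.8% lower). The median log2 fold change was 0.15 over the 8 members and 0.00 over all genes tested.

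**Figure D3:**
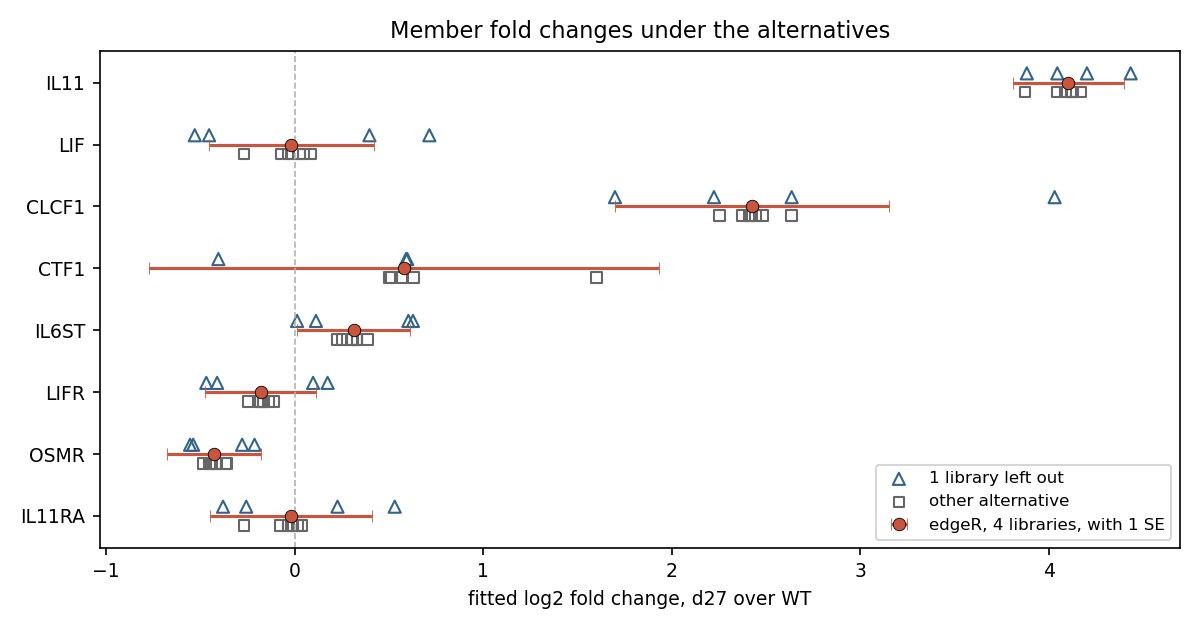
Fitted log2 fold change, d27 over WT, of the 8 tested members (red circles, bars are 1 SE), with the same value when 1 library is left out (blue triangles) or under another alternative (grey squares). IL11 stays between 3.87 and 4.43, whereas the values of LIF, LIFR, IL11RA and CTF1 fall on both sides of 0. CTF1 without WT replicate 1 is not drawn, since the WT library left over had 0 counts.

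Per kilobase of exon, which allows levels of different genes to be compared, IL11 stood at the top of the family in d27 and in its middle in WT. In d27 the order of mean levels in RPKM (the same CPM divided by kilobases of exon) was IL11 (74.1 ± 5.1), LIF (39.5 ± 17.6), IL6ST (37.3 ± 10.4), OSMR (14.3 ± 1.9), LIFR (10.1 ± 2.7), CLCF1 (4.25 ± 0.89), IL11RA (2.22 ± 0.54), CTF1 (1.22 ± 0.01) and IL6 (0.0224 ± 0.0317; SD, n = 2). In WT it was LIF (40.0 ± 22.1), IL6ST (29.99 ± 7.18), OSMR (19.2 ± 3.4), LIFR (11.4 ± 3.1), IL11 (4.31 ± 1.11), IL11RA (2.25 ± 0.95), CTF1 (0.818 ± 1.157), CLCF1 (0.792 ± 0.749) and IL6 at 0. LIF and IL6ST did not differ beyond their spread in either group, nor did CTF1 and CLCF1 in WT, where the ranges of IL11RA and CTF1 also overlapped. All other members kept the same order relative to each other in both groups, apart from CLCF1, which stood above IL11RA and CTF1 in d27.

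Ratios between members within a library do not depend on how libraries are scaled. The level of IL11 per kilobase was 2.87 and 1.36 times that of LIF in d27 replicates 1 and 2, against 0.209 and 0.0635 times in WT. Relative to its own receptor chain, IL11 stood at 42.2 and 27.1 times IL11RA in d27, against 1.74 and 2.24 times in WT. Per kilobase, IL11 counts in the precipitates thus exceeded those of IL11RA in all 4 libraries and those of LIF in the d27 libraries. The IL11RA count is uncertain, since reads shared with overlapping genes may be left out while its full exon length was used. Its level may therefore be too low, which matters most for the small ratios in WT. Among the receptor chains, IL6ST stood at 3.73 and 3.67 times LIFR per kilobase in d27, against 2.57 and 2.70 times in WT. The 2 values of that ratio were close within each group and did not overlap between groups, which was not tested. With 2 libraries a group such a separation is common, as the groups did not overlap in 61.2% of all genes tested. The ratio of IL6ST to IL11RA was 24.2 and 11.5 in d27 and 12.0 and 15.8 in WT and overlapped, as did that of IL6ST to OSMR, at 3.45 and 1.91 in d27 and 2.09 and 1.15 in WT.

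Genes outside the 9 members were called different where edgeR's quasi-likelihood test gave an adjusted p of at most 0.05. Of all 14909 genes tested, 11.7% were called, 8.00% higher in d27 and 3.70% lower, and the counts of each list are read against these shares. Further ligands of the family were at or near 0, and 1 further receptor chain was higher in d27. Of 6 further ligands or ligand partners, IL27 and IL31 had 0 counts in all libraries, and OSM and EBI3 had 1 count each, in d27 replicate 2. Only CNTF, ciliary neurotrophic factor, passed the filter, and it was not called (log2 fold change 0.88 ± 0.92 SE, edgeR adjusted p = 0.556). IL6R, the private receptor chain for IL6, had 54.7 and 53.3 CPM in d27, against 21.0 and 27.1 CPM in WT. It was the 1 further receptor chain of 3 tested that was called, with a log2 fold change of 1.17 ± 0.27 (SE, edgeR adjusted p = 0.0343), and that call was lost without d27 replicate 1 (edgeR adjusted p = 0.119) and without d27 replicate 2 (edgeR adjusted p = 0.0503). CNTFR, the receptor chain used by CNTF and CLCF1, had 7.00 and 10.5 CPM in d27 and 3.63 and 7.56 CPM in WT and was not called (0.63 ± 0.50, edgeR adjusted p = 0.423). The fourth, IL31RA, had 17 and 7 counts in d27 and 0 in both WT libraries and did not pass the filter.

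Downstream of the receptors, most signal transducers were not called. Of 11 signal transducers, all tested, 1 was called higher (8.00% of all genes), 1 lower (3.70% of all genes) and 9 were not called. A count of 1 gene of 11 in each direction is too small to set the list apart from those shares. The median log2 fold change was -0.47, beside 0.00 for all genes tested. GRB2, the adaptor that links receptors to RAS, had 540 and 416 CPM in d27, against 166 and 136 CPM in WT (log2 fold change 1.66 ± 0.27 SE, edgeR adjusted p = 0.0138). JAK1, the main kinase of gp130 receptors, had 85.2 and 114 CPM in d27, against 187 and 268 CPM in WT (-1.19 ± 0.28, edgeR adjusted p = 0.0357). The JAK1 call was lost without WT replicate 2 (edgeR adjusted p = 0.0928) and without d27 replicate 1 (edgeR adjusted p = 0.161). STAT3 itself, named here after its value was seen, had 148 and 155 CPM in d27 and 175 and 245 CPM in WT and was not called (-0.47 ± 0.25, edgeR adjusted p = 0.251).

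Of 13 feedback inhibitors, all tested, 3 rose, beside 8.00% of all genes tested, and 10 were not called, with a median log2 fold change of 0.87 and 11 of 13 values above 0. PTPN1, a phosphatase that acts on JAK kinases, had 156 CPM in both d27 libraries, against 64.8 and 48.5 CPM in WT (1.46 ± 0.25 SE, edgeR adjusted p = 0.0156). PIAS3, an inhibitor of STAT3, had 214 and 189 CPM in d27, against 80.0 and 51.7 CPM in WT (1.61 ± 0.28, edgeR adjusted p = 0.0167). SOCS3, the inhibitor that binds gp130, had 175 and 157 CPM in d27, against 88.9 and 80.8 CPM in WT (0.97 ± 0.23, edgeR adjusted p = 0.0357). The SOCS3 call was lost without WT replicate 2 (edgeR adjusted p = 0.0961), without d27 replicate 1 (0.149), with library totals (0.0556) and with GC and exon length as an offset (0.0559).

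Of 18 genes known as STAT3 targets, 17 were tested, 6 rose, beside 8.00% of all genes tested, and 11 were not called, with a median log2 fold change of 0.84. BCL3, a nuclear partner of NF-kappa-B, had 220 and 212 CPM in d27, against 44.2 and 27.1 CPM in WT (2.60 ± 0.30 SE, edgeR adjusted p = 0.00684). The survival kinases PIM3 (2.23 ± 0.26, edgeR adjusted p = 0.00691) and PIM1 (1.71 ± 0.27, edgeR adjusted p = 0.0129) rose with it. All 3 were higher in both d27 libraries than in both WT libraries, as were 31.4% of all genes tested. They were named for their low p, so this adds nothing to the calls. Many of these genes are also targets of factors other than STAT3, and the list does not separate them.

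Among 47 other secreted cytokines, chemokines and growth factors, 25 passed the filter, 6 of these rose, beside 8.00% of all genes tested, and 19 were not called, with a median log2 fold change of 0.61. CXCL2, a neutrophil chemokine, had 85 and 102 counts in d27, against 6 and 5 counts in WT (3.53 ± 0.68 SE, edgeR adjusted p = 0.0213). TGFB1, the prototype of the TGF-beta growth factors, had 450 and 488 CPM in d27, against 183 and 145 CPM in WT (1.51 ± 0.25, edgeR adjusted p = 0.0149). CCL2, a monocyte chemokine, had 160 and 301 CPM in d27, against 46.4 and 79.4 CPM in WT (1.87 ± 0.38, edgeR adjusted p = 0.0252), and CX3CL1, or fractalkine, 14.6 and 26.7 CPM in d27, against 5.33 and 6.32 CPM in WT (1.82 ± 0.40, edgeR adjusted p = 0.0301). The CXCL2 and CX3CL1 calls were lost without d27 replicate 2 (edgeR adjusted p = 0.155 and 0.169). None of the 25 had a fitted log2 fold change above that of IL11, a difference that was not tested. The 22 that did not pass the filter have no fitted value, so this does not cover them. Some of those were counted in the d27 libraries alone, and others were lower in d27. IL11 belongs to a family selected on this same difference, so its place supports nothing about it.

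**Figure D4:**
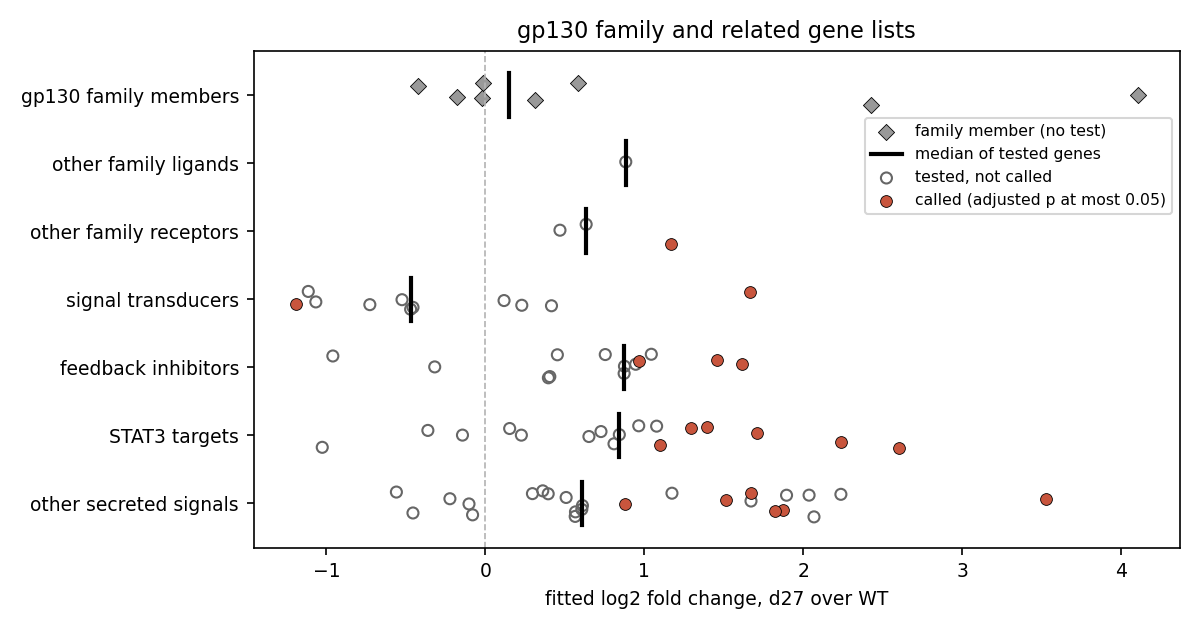
Fitted log2 fold change, d27 over WT, of every tested gene of the gp130 family and of 6 related lists, with family members as grey diamonds without a test, called genes of the lists filled red, other tested genes open and the median of each list as a black bar. IL11 lies farthest right at 4.10, and the medians of the feedback inhibitors (0.87) and STAT3 targets (0.84) lie right of 0 while that of the signal transducers (-0.47) lies left of it.

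By the Euclidean distance between mean-centred log2 CPM over the 4 libraries, the genes nearest to IL11 among 12289 other protein-coding genes tested were ZFP36, MYADM, FOSL1, ZNF575 and ODF3L1, at distances of 0.32, 0.52, 0.58, 0.61 and 0.61 on the log2 scale. ZFP36 encodes a protein that binds AU-rich elements and speeds decay of the message. It had 329 and 399 CPM in d27, against 27.7 and 18.8 CPM in WT. FOSL1, a subunit of AP-1 that is also on the mesenchymal marker list, had 1911 and 1743 CPM in d27, against 166 and 142 CPM in WT, and MYADM, a membrane protein, had 614 and 458 CPM in d27, against 45.5 and 19.8 CPM in WT. The others had few counts. The log2 CPM used for the distance had a prior count of 2 added, which shrinks differences where counts are near 0. The nearness of ZNF575 and ODF3L1 to IL11 therefore depends on that setting. ZNF575 had 150 counts over both d27 libraries and 2 over WT, a ratio of 47.4 with an exact 95% counting interval of 12.9 to 395, and ODF3L1 had 75 and 0, at least 15.8-fold higher when the 2 WT libraries together are taken at 3 counts. With 4 libraries in 2 groups, likeness of this kind is mostly likeness in the difference between d27 and WT.

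**Figure D5:**
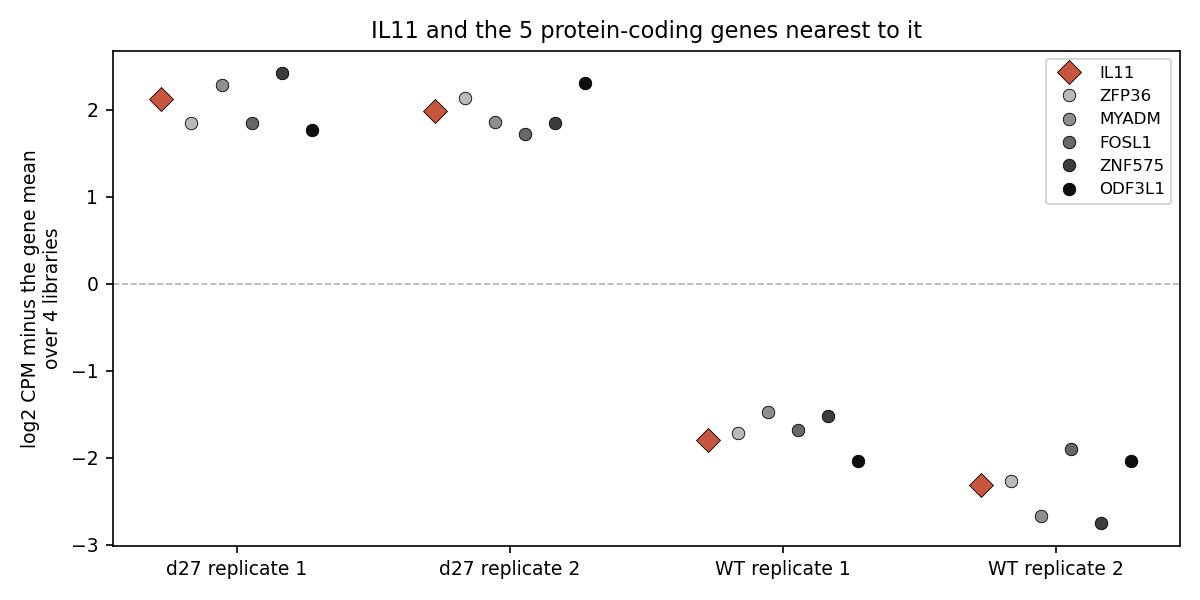
Log2 CPM minus each gene's mean over 4 libraries, by library, for IL11 (red diamonds) and the 5 protein-coding genes nearest to it (grey to black circles). The 5 genes were picked for closeness to IL11 in these same values. That all 6 lie above 0 in both d27 libraries and below 0 in both WT libraries follows from this choice. ZFP36, the nearest at a distance of 0.32, differs from IL11 least.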

How the data were processed

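Per the labels' protocols, Trizol extracts of the anti-V5 precipitates were depleted of ribosomal RNA, and a kit that marks strand made the libraries. The authors deposited raw read counts per gene, made with HTSeq on GRCh38 per the submitters' processing notes, which also name DESeq2. Which aligner, annotation release, strand setting and versions were used is not given in the sources used here. HTSeq's summary entries entered neither library sizes nor tests. Symbols were matched by Ensembl identifier, and positions, exon lengths and transcripts were taken from GENCODE release 29 (GRCh38). The main transcript of a gene was the coding one that APPRIS ranks first, then the longest.

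The counts were tested with edgeR 4.0.16 (R 4.3.3): TMM, filterByExpr by group (minimum count 10, minimum total 15; 14909 genes), and robust glmQLFit and glmQLFTest on group alone, 2 libraries each. P-values were adjusted over all genes tested (Benjamini-Hochberg, threshold 0.05), and each SE was taken as log2 fold change over the square root of F. The script was tested on simulated data, where it recovered 24% of 2-fold changes and 84% of 4-fold changes (50 genes each). A gene not called is therefore not shown to be unchanged. The members, the lists and the rule on which genes are named were chosen with earlier results of these data known. The rule names the members, up to 4 called genes of each list by lowest p (the 2 of lowest p where fewer than 2 were called), the 5 genes nearest to IL11 and KIF5A, and a few genes of the lists are not reported here by name. Alternatives were DESeq2 1.42.0, its size factors, library totals, no filter, at least 50 counts in every library of a group, the replicate number as a block, each library left out and, chosen after seeing the data, an offset for GC and exon length (mgcv 1.9.3). Depth sets the precision: 3 counts, the limit that a count of 0 allows, are 0.163 to 0.340 CPM, and such limits cover counting error only, and the labels name no molecular identifiers.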

Additional observations from a re-analysis of the deposited data

How the results depend on the processing

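The fitted log2 fold change of IL11, given with no test, was 3.87 to 4.43 over the 11 alternatives. The 1743 calls over all genes became 2841 with DESeq2, 2862 with no filter and 3575 with the replicate block, and from 768 to 4851 when 1 library was left out. These were 768 without d27 replicate 1 and 4851 without WT replicate 1. The cause was not tested. The replicate numbers pair nothing that the labels describe, and deviations of same-numbered libraries correlated at 0.10 across genes. That of CLCF1, also with no test, was 1.70 to 4.03, and 2.64 with the replicate block. The value of LIF changed sign to 0.085 with library totals, 0.048 with no filter and 0.027 with the replicate block, and ranged from -0.53 to 0.71 with 1 library left out. That of IL11RA changed to 0.038 with no filter and 0.016 with the replicate block, and ranged from -0.38 to 0.53 with 1 library left out. So left out, LIFR ranged from -0.47 to 0.17, CTF1 from -0.40 to 0.60 and KIF5A from -0.57 to 0.40. No value is given for CTF1 without WT replicate 1, where WT had 0 counts. With 1 library left out, the lone library of its group is assumed to vary like the other group's.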
